A study of Arabidopsis thaliana with 16 samples.

Results

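The heterochromatic knob on the short arm of Arabidopsis thaliana chromosome 4 was represented by 572 of the 65386 features in the small RNA table. They were all the features on chromosome 4 with a start from 1500000 up to, but not including, 2400000 (TAIR10), whatever their reads. The rule used no measured value, but the choice was made with earlier results of these data known. The 572 features comprised 432 annotated transposable elements (TEs) and 140 gene models. Among the gene models were 92 protein-coding genes, 17 lncRNAs, 13 transcribed pseudogenes and 5 miRNA genes, and the coordinates of 140 of 140 were the same in the TAIR10.1 annotation. No read was assigned to 86 features. Tests covered the 263 members whose level, averaged over all libraries, reached 1 RPM (reads per 1000000 reads assigned to features). Of these, 220 were TEs and 20 protein-coding genes, and the other 309 members were not tested.

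The knob is a block of condensed, repeat-rich chromatin that lies apart from the centromere within an otherwise gene-rich chromosome arm. In plants, TE repeats of this kind are transcribed by a specialised RNA polymerase, the transcripts are cut into small RNAs, mostly of 24 nt, and these guide DNA methylation back to the repeats. Argonaute (AGO) proteins are the carriers of the small RNAs. AGO5 is known for binding small RNAs that begin with C, and AGO9 for binding 24 nt small RNAs from TEs in reproductive tissue. The table holds the size of the reads but not their first base.

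Small RNA was sequenced after RNA immunoprecipitation (IP) through a green fluorescent protein (GFP) tag, from 8 groups of 2 libraries. Per the labels, all plants were in the col-0 background. The AGO5 IP came from pAGO5::GFP-AGO5 plants and the AGO9 IP from pAGO5::GFP-AGO9 plants, in which AGO9 was driven by the AGO5 promoter and so was measured in the cells where that promoter acts. The GFP-only IP came from p35S::GFP plants, whose promoter is active much more widely than that of AGO5. Input replicate 1 came from the AGO5 line and input replicate 2 from the AGO9 line. Each of these was sampled at day 7 from the shoot apex and at day 35 from the meristems of inflorescences and flowers together with young buds, and tissue therefore changed along with age. No label says whether the replicates came from separate plants, and p-values measure the spread between these libraries, which may be technical. The tests took the 2 inputs of an age as replicates, so their spread also holds any difference between the AGO5 and AGO9 lines.

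The knob features held between 30773 and 1426335 read assignments per library. How reads that fit several copies of a repeat or overlapping features were counted is not given, so a read may count more than once. Of the knob features, 181 overlapped another listed feature. The 2 GFP-only libraries of day 35 stood apart from the rest: they were the shallowest, 72.6% and 80.8% of the knob features had no read in them, and a floor of 3 reads corresponded to 0.838 and 0.721 RPM. Known age-dependent miRNAs were checked against the labels. The MIR156 and MIR157 loci, which are high in young shoots, summed to between 4476 and 4637 RPM in the day 7 inputs and between 274 and 735 RPM in those of day 35, whereas the MIR172 loci, high in older shoots, summed to between 63.5 and 72.6 RPM and between 321 and 392 RPM. MIR845a and MIR845b summed to between 15390 and 23185 RPM in the day 35 AGO5 IP and at most 86.2 RPM in the AGO9 IP, but at day 7 the AGO5 IP held 12.7 and 17.5 RPM, less than the 35.6 and 69.0 RPM of the GFP-only IP. Plastid and mitochondrial features took 68082.5 and 299632 RPM of the day 7 GFP-only libraries. They took 51802 and 57039 RPM of the day 7 inputs, at most 33151 RPM of the day 7 AGO libraries, and 3080 and 7364 RPM of the day 35 inputs. Such reads lower the RPM of all other features, and their part in the differences below was not tested.

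Sequences are given for 2 sets of members named in the results below. The first set is the MIR447 cluster, the most abundant miRNA genes of the knob, which target a family of 2-phosphoglycerate kinase-related genes. The 22 nt mature miRNAs lie at chr4:1528190-1528211 (MIR447a), chr4:1535482-1535503 (MIR447b) and chr4:1523362-1523383 (MIR447c), all on the minus strand of TAIR10.1 (RefSeq). MIR447a and MIR447c each have another annotated mature miRNA, of 21 nt, which is not shown. In day 7 input 21 nt reads made up 77.8% of the RPM of MIR447a and of MIR447b, and 98.2% of that of MIR447c. Most reads counted there were thus shorter than the sequences shown, and their place in the hairpin is not given. Capitals mark the seed, bases 2 to 8, which is the same in all 3 sequences.
MIR447a: tTGGGGACgagatgttttgttg
MIR447b: tTGGGGACgagatgttttgttg
MIR447c: tTGGGGACgacatcttttgttg

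The second set is the first 240 bases of 4 TE features, read 5′ to 3′ along the annotated strand of the same build. AT4TE08245 (chr4:1618159-1618398, plus strand) held the most reads of the knob. AT4TE08980 (chr4:1796059-1796298, plus strand) was richer in the AGO5 IP than in input at both ages. AT4TE08340 (chr4:1642108-1642347, minus strand) was the TE with the largest difference in the AGO9 IP. AT4TE08355 (chr4:1645006-1645245, minus strand) is shown because it begins with the same bases as AT4TE08245 and was chosen after its values were seen. Capitals mark bases that lie in at least 1 word of 24 bases found once in the genome, and lower case marks bases whose 24 nt words all occur elsewhere too.
AT4TE08245: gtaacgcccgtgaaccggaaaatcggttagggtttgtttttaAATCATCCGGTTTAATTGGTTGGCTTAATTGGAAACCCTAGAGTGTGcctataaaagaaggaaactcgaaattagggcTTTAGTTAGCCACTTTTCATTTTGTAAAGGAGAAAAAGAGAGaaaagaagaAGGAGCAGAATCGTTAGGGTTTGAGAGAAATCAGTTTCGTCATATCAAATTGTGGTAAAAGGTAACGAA
AT4TE08355: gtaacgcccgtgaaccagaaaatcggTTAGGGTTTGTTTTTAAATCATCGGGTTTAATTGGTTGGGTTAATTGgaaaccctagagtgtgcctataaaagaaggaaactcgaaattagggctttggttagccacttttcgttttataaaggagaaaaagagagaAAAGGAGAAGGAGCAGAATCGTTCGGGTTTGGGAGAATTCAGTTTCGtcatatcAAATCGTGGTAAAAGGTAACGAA
AT4TE08980: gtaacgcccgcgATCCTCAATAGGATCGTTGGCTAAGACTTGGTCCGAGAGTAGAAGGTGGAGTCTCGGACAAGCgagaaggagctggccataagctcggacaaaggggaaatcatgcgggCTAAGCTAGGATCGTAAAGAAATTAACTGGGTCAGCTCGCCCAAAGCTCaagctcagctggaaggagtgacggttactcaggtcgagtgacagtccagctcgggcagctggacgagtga
AT4TE08340: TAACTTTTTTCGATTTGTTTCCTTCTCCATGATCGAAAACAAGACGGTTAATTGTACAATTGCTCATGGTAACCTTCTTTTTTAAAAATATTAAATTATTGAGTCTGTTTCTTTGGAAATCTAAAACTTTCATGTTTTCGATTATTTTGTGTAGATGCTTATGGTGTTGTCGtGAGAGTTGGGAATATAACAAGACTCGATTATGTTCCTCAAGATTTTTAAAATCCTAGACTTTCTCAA
In these stretches 158 bases of AT4TE08245, 117 of AT4TE08355 and 112 of AT4TE08980 lie in such single words, against 239 of AT4TE08340. The first 10 bases of AT4TE08245 and AT4TE08980 are the same, and 8 of the 31189 TE features of the table start with them, 3 of them in the knob.

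Small RNA of the knob was concentrated in few features. TEs held 84.3% of the knob RPM averaged over the 16 libraries, miRNA genes 7.83% and protein-coding genes 5.46%. The top 3 features held 21.5%, the top 10 held 43.5% and the top 50 held 81.9%. TEs of 5000 bases or more were 26 of the 432 TEs and held 43.1% of the TE RPM, whereas the 249 TEs under 500 bases held 7.10%. Long TEs have more places for a read to fall, and RPM is not corrected for length.

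The small RNA pool of the knob differed in size between the IPs. The AGO9 IP held mostly 24 nt reads, which made up 88.8% and 96.5% of knob RPM in its day 7 libraries and 89.8% and 69.5% at day 35. In the input the 24 nt share was 57.9% and 57.4% at day 7 and 48.5% and 57.7% at day 35. The AGO5 IP held 59.3% and 59.3% at day 7 and 36.8% and 35.2% at day 35, so it lay just above the inputs at the first age and below both at the second. AGO5 instead carried the larger share of 22 nt reads, 25.2% and 29.6% at day 7 and 33.8% and 33.0% at day 35, where the inputs held 9.18%, 9.17%, 9.41% and 10.2% and the AGO9 IP between 0.660% and 7.33%. The GFP-only background was also rich in 22 nt reads, with 21.9% and 22.1% at day 7 and 31.6% and 21.7% at day 35. The 22 nt share of the AGO5 IP lay above that of all GFP-only libraries of its age. The 22 nt excess of AGO5 and the 24 nt excess of AGO9 over input were no property of the knob alone. In chromosome 4 TEs of the pericentromere, defined below, 22 nt reads made up 26.6% and 31.5% of AGO5 RPM at day 7. At day 35 they made up 36.4% and 36.9%, and in the inputs of both ages between 12.5% and 13.3%. The 24 nt share there was between 67.6% and 95.99% in the AGO9 IP and between 55.9% and 60.5% in the inputs.

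**Figure D1:**
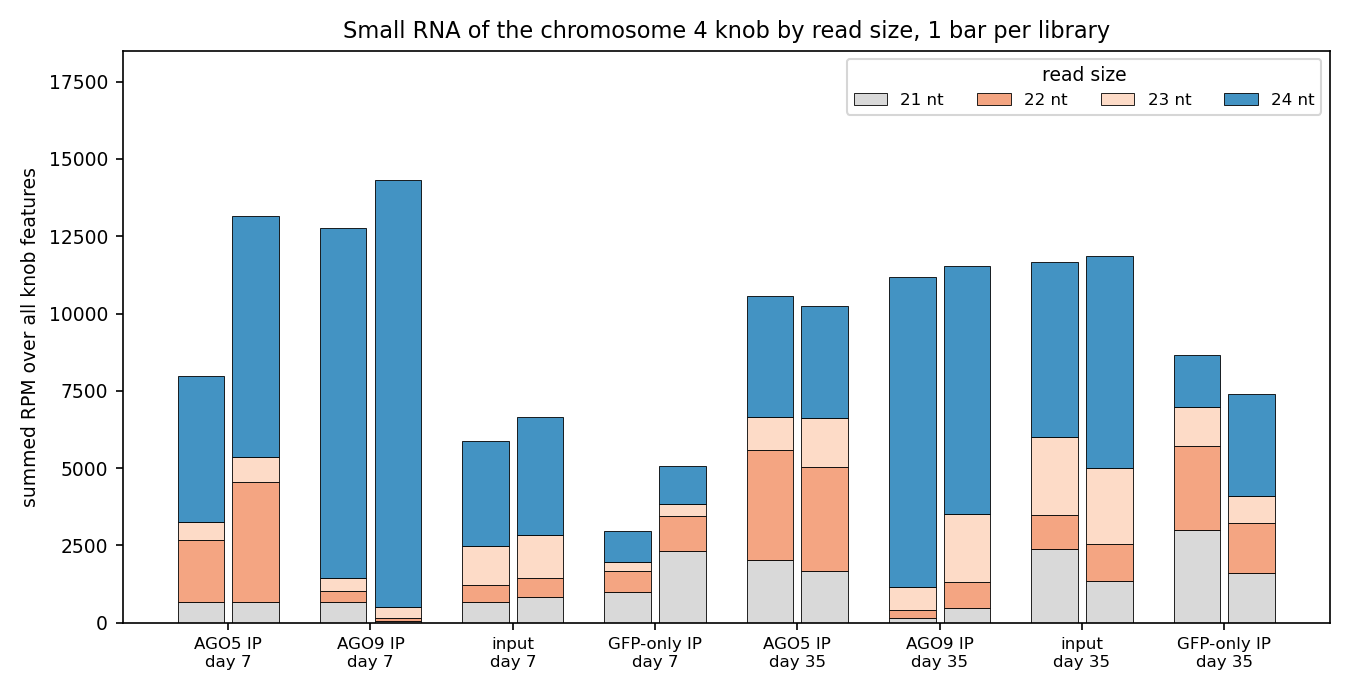
Summed RPM of the 572 knob features in each of the 16 libraries, stacked by read size (21, 22, 23 and 24 nt). Each bar is 1 library and neighbouring bars are replicates of 1 group; the AGO9 bars are mostly 24 nt and the AGO5 bars carry a wider 22 nt band than the input bars.

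The groups of AGO9 IP and input did not overlap in 24 nt share at either age, and the mean difference was 35.0 points at day 7 and 26.6 points at day 35. The AGO5 IP exceeded input in 22 nt share by 18.2 and 23.6 points. With 2 libraries against 2, the exact two-sided permutation test gave 0.333 for each of these, which is the smallest p it can give, so none could pass 0.05. Counting error was small beside these differences: the 95% Wilson half-width of a 24 nt share was at most 0.555 points in any library, for counting error only. The AGO5 excess in 24 nt share at day 7, 1.65 points, became a difference of -2.36 points when the TEs were taken without the genes.

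Summed over the knob, day 7 input held 5887 and 6668 RPM and day 35 input 11664 and 11852 RPM, so the later inputs were both higher, by 0.91 on the log2 scale. At day 7 the AGO5 IP held 7986 and 13150 RPM, the AGO9 IP 12779 and 14321 RPM and the GFP-only IP 2983 and 5056 RPM. All AGO libraries lay above the inputs and the inputs above the GFP-only libraries. At day 35 the AGO5 IP held 10554 and 10243 RPM, the AGO9 IP 11193 and 11530 RPM and the GFP-only IP 8660 and 7396 RPM. There the AGO libraries lay just below the inputs and above the GFP-only libraries. RPM is a share of each library, so these sums give the place of the knob among all assigned reads and not an amount of RNA bound. The rise of the inputs with age was no property of the knob alone. In chromosome 4 TEs of the pericentromere, input rose from 36283 and 39136 RPM to 52140 and 61213 RPM. In those of the long arm it rose from 12758 and 14402 RPM to 31839 and 29626 RPM.

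The reads were uneven along the window when it was divided into bins of 100 kb by feature start. The bin from 1600000 to 1699999, which contains AT4TE08245, held the most small RNA in the AGO9 IP, at 3271 ± 671 RPM (SD, n = 2) at day 7 and 2637 ± 185 at day 35, and at day 7 the AGO5 IP held 3163 ± 1330 there. The input held 1164 ± 126 and 1743 ± 278 in this bin. The last 3 bins were low in every group, with at most 818 ± 76.1 RPM. The first bin, where the MIR447 genes lie, was the bin with the highest GFP-only level, 1359 ± 787 at day 7 and 2367 ± 1134 at day 35. There 24 nt reads made up 7.32% of the GFP-only RPM at day 7 against 39.1% in the second bin.

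**Figure D2:**
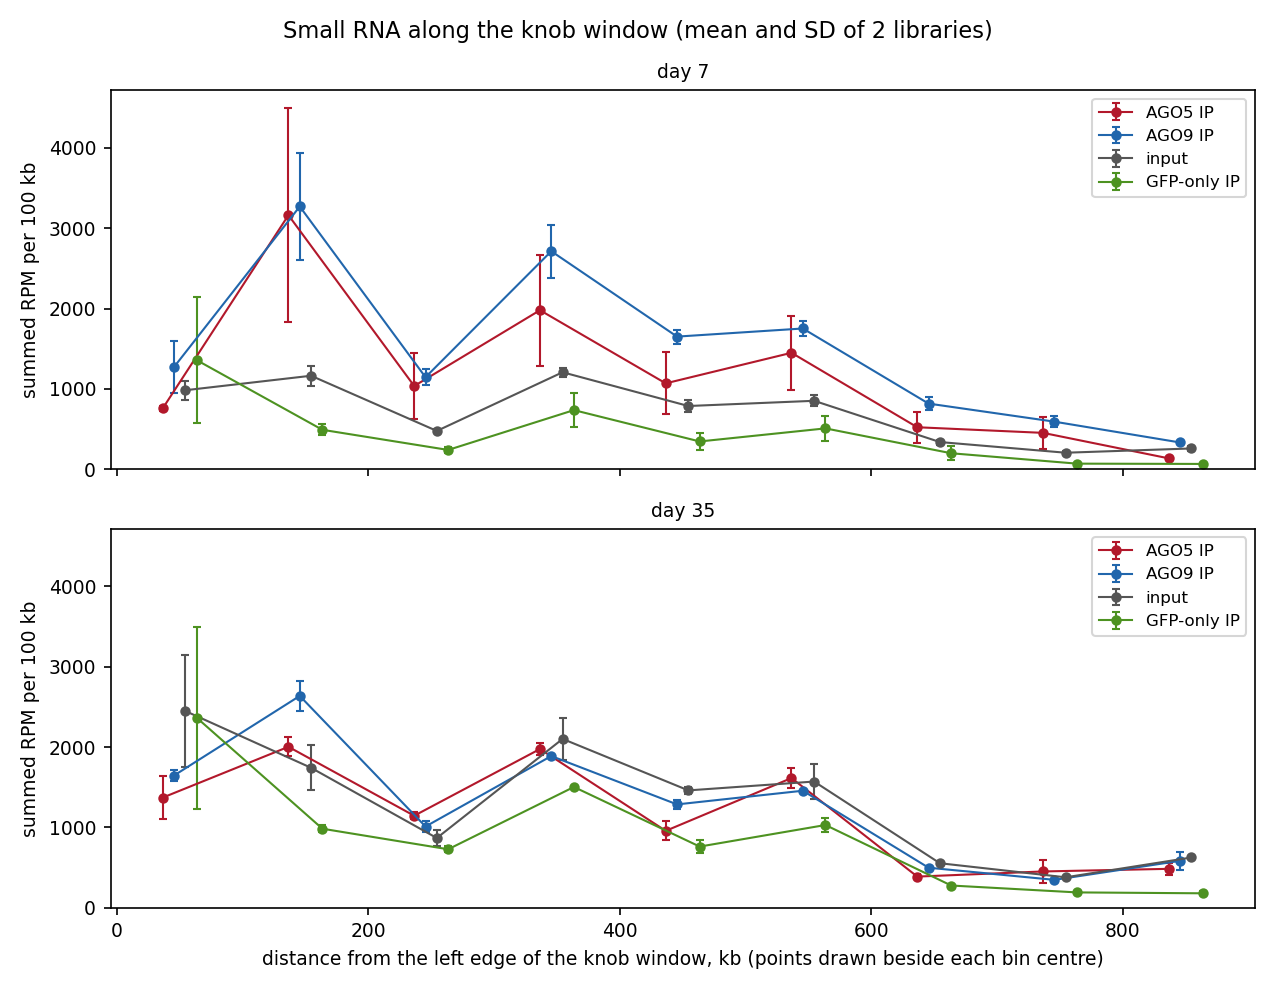
Summed RPM in 9 bins of 100 kb along the knob window at day 7 and day 35, against distance from its left edge in kb; points are means and bars the SD of 2 libraries. At day 7 the AGO9 IP lies above input in every bin, and at day 35 the 4 groups run closer together.

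Each feature was then compared between groups with limma on log2(RPM + 1), and a difference counted as higher or lower where its Benjamini-Hochberg adjusted p over all 17020 tested features was under 0.05. All differences below are on that scale, which understates the change of low features. At day 7, 72 of the 263 tested knob features were higher in the AGO9 IP than in input and 2 were lower, against 17.6% higher and 9.48% lower among all tested features. The knob shares were 27.4% and 0.760%. The 61 TEs among the higher features were of 220 tested, and no TE was lower. The median difference was 1.07 over the knob and 0.65 over all features. These calls depended on the test: edgeR on whole reads recovered from the RPM values called 1 knob feature higher and 0 lower in this comparison, and none was higher when input replicate 1 of day 7 was left out.

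In the AGO5 IP, 33 knob features were higher than input at day 7 and 10 were lower, against 7.73% and 10.4% of all tested features, which is 12.5% and 3.80% of the knob. The median difference was 0.13 over the knob and -0.30 over all features. No call was left in either direction when AGO5 replicate 2 of day 7 was left out. At day 35 the AGO5 IP had 9 knob features above input and 45 below, against 3.84% and 24.2% of all features, with medians of -0.26 and -0.65. This split turned with the scaling, to 39 higher and 21 lower after quantile normalization and to 26 and 10 with edgeR. At the same age the AGO9 IP had 3 higher and 2 lower, against 3.59% and 6.26%, with medians of -0.07 and -0.30.

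The knob median lay above the median of all features in each of these 4 comparisons under all 3 scalings. The gap was 0.43, 0.49 and 0.70 for AGO5 at day 7 with RPM, quantile normalization and edgeR, and 0.42, 0.38 and 0.43 for AGO9. At day 35 it was 0.40, 0.35 and 0.56 for AGO5 and 0.23, 0.24 and 0.30 for AGO9. All features include genes, whereas most tested knob features were TEs. Chromosome 4 TEs of the pericentromere, defined below, also lay above input at day 7. They summed to 55667 and 89902 RPM in the AGO5 IP, 72951 and 91458 RPM in the AGO9 IP and 36283 and 39136 RPM in input. Long arm TEs summed to 9070 and 11264.5 RPM, 20437 and 20155 RPM, and 12758 and 14402 RPM, so there the AGO5 IP lay below input.

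Against the GFP-only IP, the AGO9 IP had 197 knob features higher and 5 lower at day 7 (60.2% and 4.92% of all features), and 116 and 6 at day 35 (38.5% and 6.5%). The AGO5 IP had 101 and 4 at day 7 (24.5% and 1.39%), and 87 and 5 at day 35 (24.5% and 5.26%). At day 7 the AGO9 count was 60 higher and 13 lower after quantile normalization and 17 and 4 with edgeR. Comparisons with input and with GFP-only share their IP libraries and are not independent of each other. Directly compared at day 7, 1 knob feature was higher in AGO5 than in AGO9 and 46 were lower (3.44% and 21.5% of all features), but edgeR gave 7 higher and 0 lower. At day 35 there were 10 and 33 (7.06% and 18.6%), which became 21 and 24 after quantile normalization and 17 and 14 with edgeR.

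Within the knob, the AGO5 difference from input went with base composition. The TEs were divided by GC content into under 30%, 30 to under 40%, and 40% or more, classes chosen after the data were seen. At day 7 the median AGO5 difference from input was -0.68 in the 72 tested TEs of the lowest class, 0.45 in the 95 of the middle class and 1.11 in the 53 of the highest. None of the lowest class was higher and 8 were lower, whereas 17 of the highest class were higher and 1 was lower. Among all tested features 7.73% were higher and 10.4% lower, so the 8 lower TEs of the lowest class are near that share. Quantile normalization gave 3 higher and 7 lower in the lowest class and 21 and 0 in the highest, and edgeR gave 1 and 0 and 18 and 0. The day 35 medians were -1.46, -0.07 and 0.41, with 30 TEs of the lowest class lower and 1 higher, and 2 of the highest class lower and 5 higher, against 24.2% lower and 3.84% higher among all features. These counts moved with the scaling, to 14 lower and 2 higher in the lowest class and 1 and 17 in the highest after quantile normalization, and to 8 and 0 and 0 and 15 with edgeR. Relative to the median of all features, the lowest class lay at -0.38 and the highest at 1.41 at day 7, and at -0.81 and 1.07 at day 35. The order was the same after quantile normalization, at -0.35 and 1.28 and at -0.73 and 0.96, and with edgeR, at -0.45 and 1.76 and at -0.93 and 1.39.

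The summed levels gave the same order by library. TEs of 40% GC or more summed to 3658 and 6803 RPM in the AGO5 IP at day 7 against 1670 and 1858 RPM in input, and to 4289 and 4475 RPM against 2598 and 3282 RPM at day 35. TEs under 30% GC summed to 1209 and 1443 RPM in the AGO5 IP at day 7 against 1611 and 1777 RPM in input, and to 1655 and 1538 RPM against 3226 and 3367 RPM at day 35. The AGO5 libraries thus lay above both inputs in the GC-rich class and below both in the GC-poor class, at both ages. The AGO9 IP lay above input in both classes at day 7, with 4384 and 5609 RPM in the GC-rich and 2707 and 2507 RPM in the GC-poor class. At day 35 it held 3360 and 3871 RPM in the GC-rich class, above both inputs, and 3061 and 2524 RPM in the GC-poor class, below both.

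**Figure D3:**
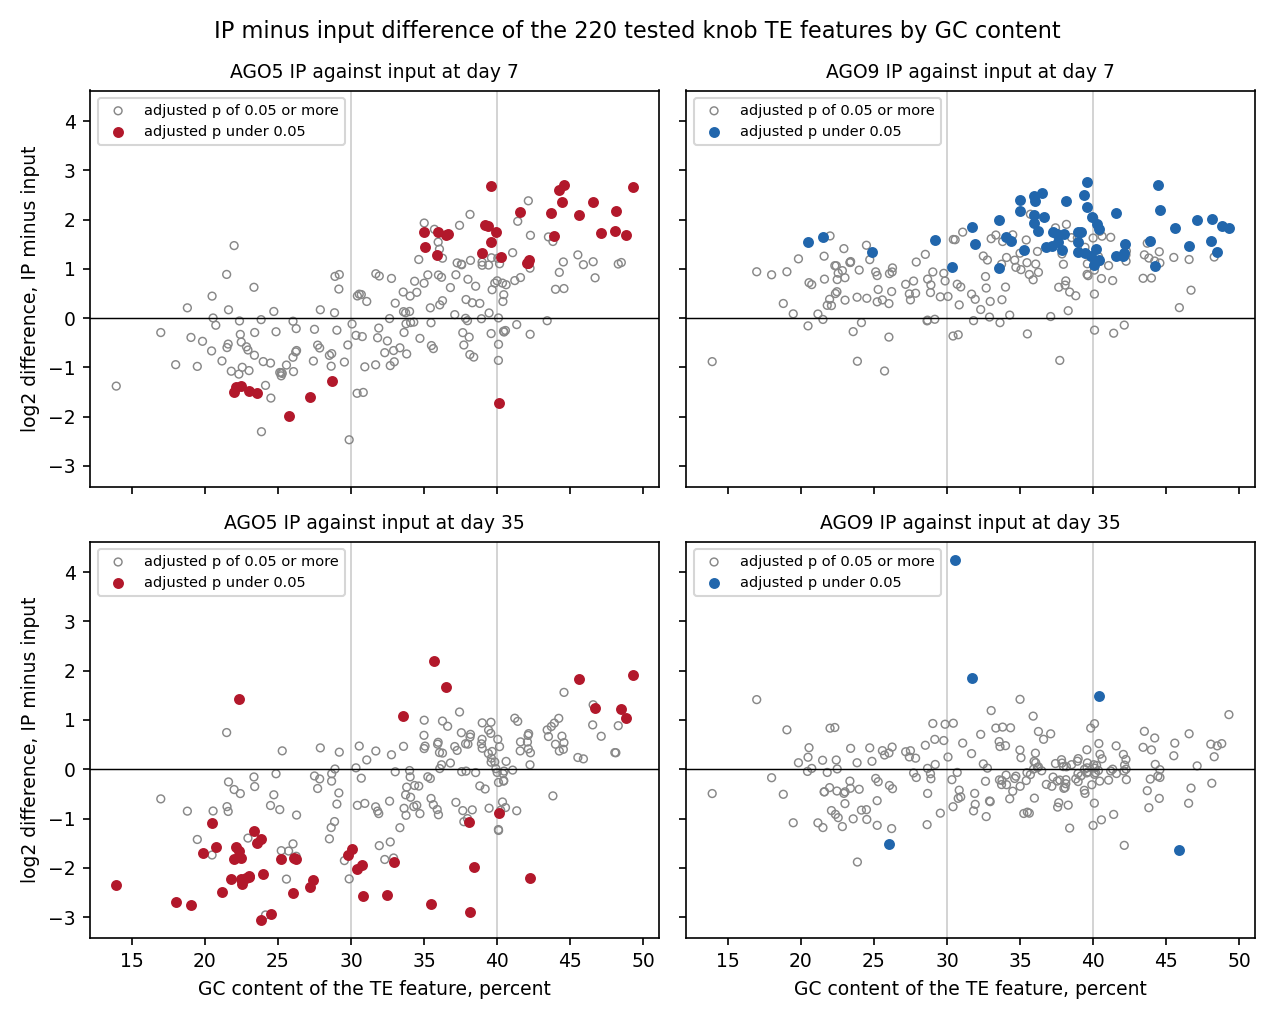
Difference in log2(RPM + 1) between IP and input against GC content in percent for the 220 tested knob TEs, with 1 panel for each IP and age; filled points passed an adjusted p of 0.05 and vertical lines mark the class bounds of 30 and 40%. AGO5 differences climb with GC content at both ages, and the class medians of AGO9 at day 35 lie near 0 (-0.18, -0.08 and 0.00) with single TEs far from it on both sides.

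Across the 220 TEs, Spearman's rho between GC content and the AGO5 difference was 0.66 at day 7 and 0.63 at day 35, and for AGO9 it was 0.43 and 0.14. These describe TEs that share libraries and may share reads, and they are not independent. Among the 160 TEs under 2000 bases the AGO5 values were 0.62 and 0.58, and among the 60 longer ones 0.48 and 0.50. The relation was no property of the knob alone, since the 12013 tested TEs elsewhere gave 0.69 and 0.63 for AGO5. Against the GFP-only IP the knob values for AGO5 were 0.62 at day 7 and 0.32 at day 35. The 22 nt reads were also commoner in GC-rich TEs: in the class of 40% or more they made up 35.1% of the AGO5 RPM at day 7 and 11.7% of the input, but 35.4% of the GFP-only RPM.

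TE length gave a second gradient, in classes also chosen after the data were seen. The median AGO9 difference from input at day 7 was 0.66 in the 76 tested TEs under 500 bases, 1.13 from 500 to under 2000, 1.34 from 2000 to under 5000 and 1.53 in the 24 TEs of 5000 or more. The AGO5 medians at day 7 were -0.12, -0.04, 1.002 and 1.08. The AGO9 medians at day 35 lay between -0.08 and 0.00, while those of AGO5 were -0.76, -0.38, 0.28 and 0.37. Length and GC content went together, with the longest class at a median GC of 40.3% and the second shortest at 27.9%, and their parts in the differences were not tested. The gradient was no property of the knob alone: tested TEs elsewhere gave day 7 medians of 0.53, 0.81, 1.25 and 1.45 for AGO9 and -0.25, -0.53, 0.47 and 1.09 for AGO5, in the same order of classes.

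**Figure D4:**
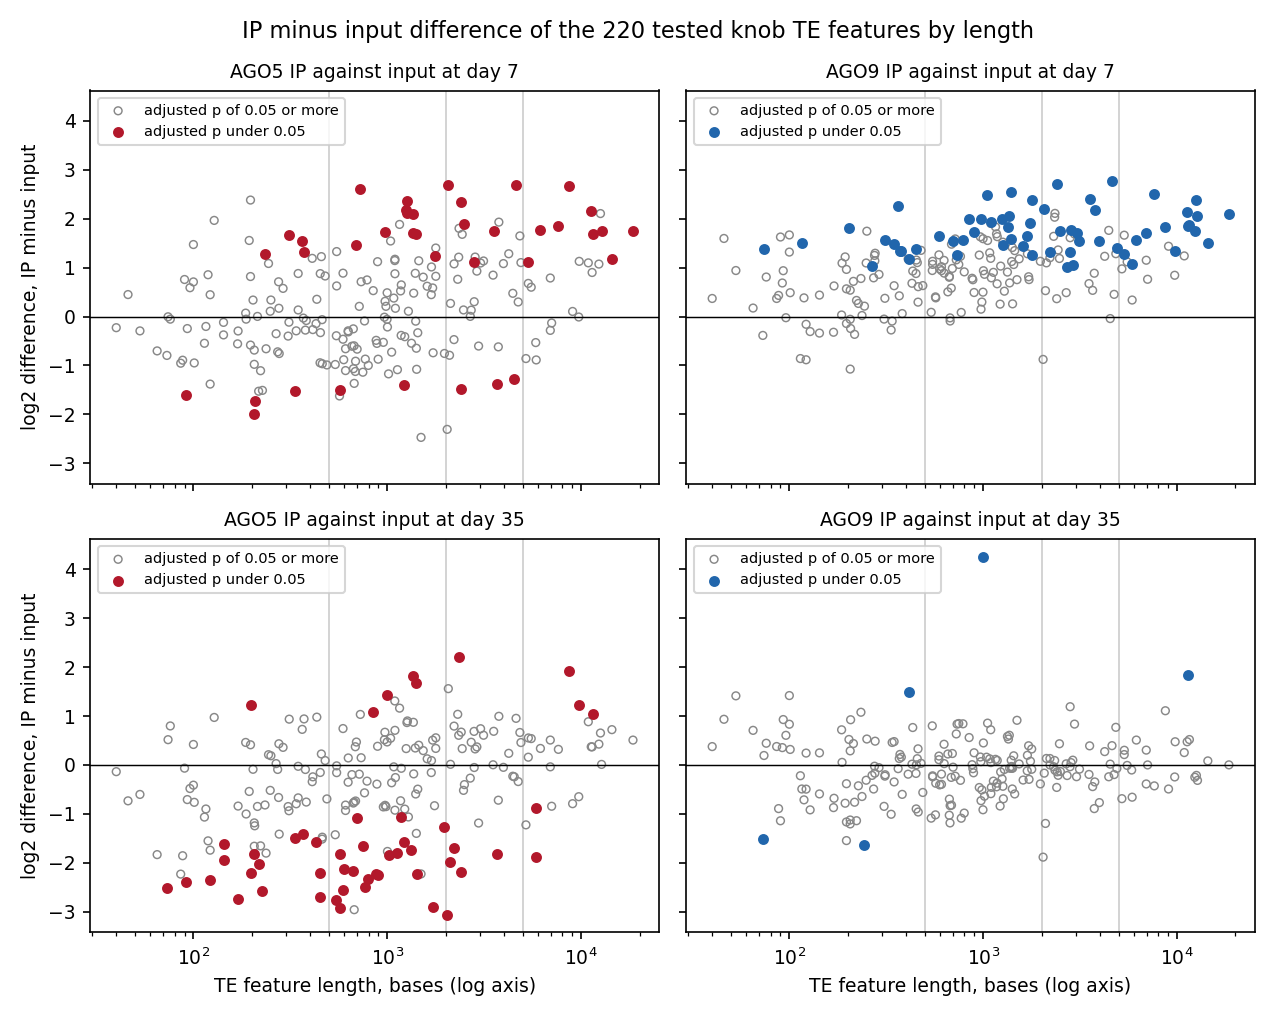
Difference in log2(RPM + 1) between IP and input against TE length in bases (log axis) for the 220 tested knob TEs, with 1 panel for each IP and age; filled points passed an adjusted p of 0.05 and vertical lines mark 500, 2000 and 5000 bases. Day 7 differences lie higher for long TEs in both IPs, and AGO9 at day 35 shows no such slope.

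AT4TE08340, a TE of 998 bases (chr4:1641350-1642347, minus strand), was the knob TE with the largest called AGO9 difference from input. It held 333.3 and 446.5 RPM in the day 35 AGO9 IP against 17.5 and 21.3 RPM in input, 21.7 and 33.8 RPM in the AGO5 IP and 7.82 and 0 RPM in the GFP-only IP. Both AGO9 libraries lay far above all other libraries, since at day 7 the AGO9 IP held 17.3 and 21.7 RPM and input 4.92 and 6.76 RPM. The day 35 difference from input was 4.25 (SE 0.76, limma adjusted p = 0.00487) and that of AGO5 from AGO9 was -3.78 (adjusted p = 0.00359). The first call was lost only when input replicate 1 of day 35 was left out (adjusted p = 0.06), and the second was kept under every alternative run. Its neighbour AT4TE08260 (chr4:1624321-1635706, 11386 bases) held 218 and 325 RPM in the day 35 AGO9 IP against 69.6 and 77.1 RPM in input, a difference of 1.85 (SE 0.35, adjusted p = 0.00701). That call was lost without AGO9 replicate 2 or input replicate 1 of day 35. Unlike AT4TE08340, AT4TE08260 had a difference of nearly the same size at day 7. It then held 192 and 275 RPM in the AGO9 IP against 58.6 and 68.5 RPM in input (1.84, limma adjusted p = 0.00574). Calls of that day 7 comparison depended on the test, as given above.

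AT4TE09410 (chr4:1958753-1960245) separated the AGO proteins at both ages. At day 7 it held 2.26 and 2.44 RPM in the AGO5 IP and 35.2 and 26.0 RPM in the AGO9 IP, with input between them at 16.8 and 18.4 RPM. At day 35 the AGO5 IP held 11.5 and 6.28 RPM, the AGO9 IP 98.0 and 70.2 RPM and input 52.4 and 36.2 RPM. The AGO5 libraries lay below both inputs of their age and the AGO9 libraries above them, but none of the 4 differences from input passed the test (adjusted p = 0.0538 and 0.0594 for AGO5, 0.51 and 0.616 for AGO9). The AGO5 difference from AGO9 was -3.22 at day 7 and -3.14 at day 35 (SE 0.81, adjusted p = 0.014 and 0.0143). Both calls were lost with a pseudocount of 0.25 (adjusted p = 0.063 and 0.076) and with edgeR (0.23 and 0.11).

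AT4TE08245 (chr4:1618159-1624320, 6162 bases, 48.1% GC), the most abundant knob feature, held 1251 and 2391 RPM in the AGO5 IP at day 7 and 1258 and 1766 RPM in the AGO9 IP. Input held 474 and 536 RPM and the GFP-only IP 213 and 254 RPM. Both AGO groups lay above input without overlap, and they overlapped each other. The differences from input were 1.78 for AGO5 and 1.56 for AGO9 (SE 0.29, adjusted p = 0.00711 and 0.00545). At day 35 the AGO5 IP held 942 and 1003 RPM, the AGO9 IP 1111 and 1079 RPM and input 667 and 886 RPM, and neither difference, 0.34 and 0.51, passed the test. Only 21.2% of its 24 nt words occur once in the genome, so reads assigned to it may come from other copies.

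AT4TE08980 (chr4:1796059-1804755, 8697 bases, 49.3% GC) held 248 and 502 RPM in the AGO5 IP at day 7 against 54.3 and 55.8 RPM in input, and 306 and 327 RPM against 68.6 and 100.1 RPM at day 35. At each age both AGO5 libraries exceeded the inputs, by 2.66 (adjusted p = 0.00567) and 1.92 (adjusted p = 0.00399; SE 0.39 for both). The AGO9 libraries exceeded the inputs too, with 179 and 218 RPM at day 7 and 151 and 214 RPM at day 35. Their difference from input was 1.83 at day 7 (limma adjusted p = 0.00742) and 1.11 at day 35, which did not pass (adjusted p = 0.108). The GFP-only IP held 141 and 200.5 RPM at day 35, and the AGO5 difference from it, 0.91, did not pass (adjusted p = 0.104). AT4TE08355 begins with the same bases as AT4TE08245 and AT4TE08980, but its AGO5 libraries lay below the inputs at both ages. At day 7 the difference of -0.39 did not pass (limma adjusted p = 0.295). At day 35 the AGO5 IP held 212 and 174 RPM against 368 and 442 RPM in input, a difference of -1.07 (SE 0.24, limma adjusted p = 0.00709). Only 23.5% of the 24 nt words of AT4TE08980 and 17.2% of those of AT4TE08355 occur once in the genome. Reads assigned to either may thus come from other copies.

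AT-rich TEs that were lower in the AGO5 IP than in input included AT4TE09190 and AT4TE09140. AT4TE09190 (chr4:1866672-1867893, 22.1% GC) held 154 and 75.9 RPM there at day 7 against 289 and 283 RPM in input, and 227 and 126 RPM against 451 and 567 RPM at day 35. The differences were -1.40 and -1.57 (SE 0.41, limma adjusted p = 0.0347 and 0.0135). The day 7 call was lost with edgeR, which called 0 knob features lower in that comparison. Calls of that comparison also depended on AGO5 replicate 2, as given above. The AGO9 IP held 387 and 301 RPM at day 7 and 356 and 223 RPM at day 35, and neither difference from input passed the test. AT4TE09140 (567 bases, 24.5% GC) held 4.42 and 1.57 RPM in the day 35 AGO5 IP against 27.7 and 27.1 RPM in input, a difference of -2.93 (SE 0.53, adjusted p = 0.00205) that was called under every alternative run.

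**Figure D5:**
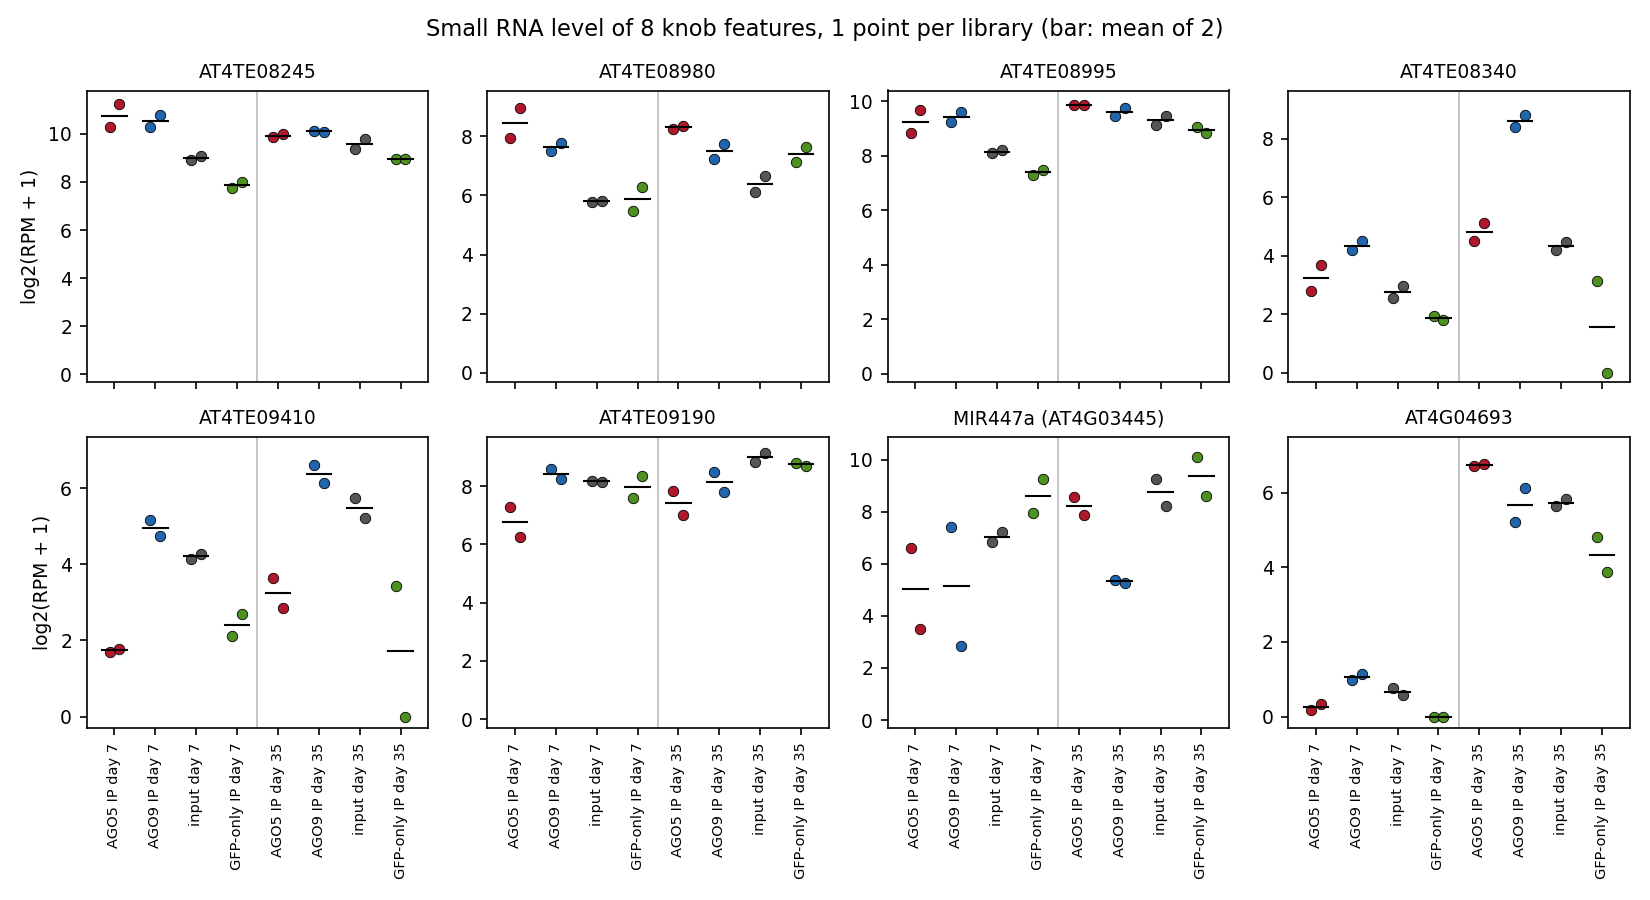
log2(RPM + 1) in each of the 16 libraries for 8 knob features, with 1 point per library, grouped by IP and age. In AT4TE08340 the 2 AGO9 points of day 35 stand above all others, and AT4G04693 is at most 1.19 RPM in every day 7 library and at least 13.7 RPM in every day 35 library.

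Some TEs were listed without a read in both GFP-only libraries of day 35, so only a lower bound can be given there, against a floor of 3 reads per library. AT4TE10585 was at least 18.1-fold higher in the AGO5 IP and at least 10.3-fold higher in the AGO9 IP, but its input was also at least 14.2-fold above the same floor. AT4TE09815 was at least 24.5-fold higher in the AGO9 IP, but its input was also at least 22.4-fold higher than that floor.

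Of the 4 tested miRNA genes, 4 were lower in the AGO9 IP than in GFP-only at day 7 and 3 at day 35, and 2 were lower in the AGO5 IP at day 7, against 4.92%, 6.5% and 1.39% of all features. MIR447a and MIR447b share a mature sequence and had nearly the same levels, so they do not count as separate members. None was higher in these comparisons. Hairpin levels of MIR447a, whose mature sequence is given above, were 243 and 606 RPM in the GFP-only IP at day 7, 114 and 146 RPM in input, 96.5 and 10.2 RPM in the AGO5 IP and 169 and 6.21 RPM in the AGO9 IP. The replicates of both AGO groups were far apart. At day 35 the AGO9 IP held 40.1 and 37.8 RPM, below the 374 and 231 RPM of the AGO5 IP, the 607 and 299.7 RPM of input and the 1105 and 386 RPM of GFP-only. MIR447a was lower in the AGO9 IP than in GFP-only at day 7 (-3.46) and day 35 (-4.03; SE 1.25, adjusted p = 0.0299 and 0.0203), but the day 7 call was lost with edgeR (adjusted p = 0.058) and without AGO9 replicate 2 (0.35), and the day 35 call without either AGO9 replicate. Reads of the mature miRNA that MIR447a and MIR447b share cannot be told apart. None of the miRNA genes differed from input in either IP by the test.

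MIR3932a, a hairpin feature on the plus strand at chr4:2179000-2179122, was described outside the naming rule, after its values were seen. The input level of the hairpin feature, whose reads in day 7 input were 53.4% of 21 nt and 37.3% of 24 nt, fell from 15.0 and 19.0 RPM at day 7 to 0.368 and 0.281 RPM at day 35, a difference of -3.76 (SE 0.82, adjusted p = 0.0128). No read was assigned to MIR841b.

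Between the ages, 22 knob features were higher in day 35 input and 3 were lower, against 11.2% and 5.44% of all features, but 3 and 1 with edgeR and 2 higher without input replicate 1 of day 7. The median difference was 0.45 over the knob and 0.48 over all features. The transcribed pseudogene AT4G04693 (chr4:2379440-2380744), which overlaps AT4TE11090, held 0.712 and 0.483 RPM in day 7 input and 48.8 and 55.7 RPM in day 35 input. Its rise of 5.06 (SE 0.43, adjusted p = 1.44e-05) was called under every alternative run. The lncRNA AT4G04855 rose from 0 and 0.069 RPM to 20.5 and 25.2 RPM, which was also called throughout (adjusted p = 0.000429). It overlaps AT4G04845 on the opposite strand, and without strand, reads in the stretch the pair shares cannot be told apart.

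Of 20 tested protein-coding genes, 5 were higher in the AGO9 IP than in input at day 7 and 1 was lower, against 17.6% and 9.48% of all features. Against GFP-only, 12 of the 20 were higher, near the 60.2% of all features. The most abundant, AT4G03580, overlaps the TE AT4TE08130, and it held 463 and 387 RPM in the AGO9 IP at day 7 against 175 and 207 RPM in input (1.15, SE 0.32, adjusted p = 0.0205). OFP9 (AT4G04030), a member of the OVATE family of transcriptional regulators, held 24.1 and 22.8 RPM against 25.1 and 24.01 RPM, and 9.10% of its 24 nt words occur once in the genome.

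Whether the enrichment over input itself changed with age was tested as an interaction. For AGO5 no knob feature passed in either direction (0.382% and 0.106% of all features), with 33 at an unadjusted p under 0.05 and none called by edgeR. For AGO9, 0 were higher and 2 lower (1.2% and 0.711%), AT4TE09925 and the ncRNA AT4G04315. AT4TE09925 held 75.5 and 79.1 RPM in the AGO9 IP at day 7 against 25.3 and 26.1 RPM in input, and 27.8 and 29.1 RPM against 45.6 and 53.0 RPM at day 35. The AGO9 libraries lay above the inputs at day 7 and below them at day 35, and the change was -2.32 (SE 0.49, adjusted p = 0.0376). It was not called with quantile normalization (adjusted p = 0.12), with edgeR, or when any of the day 7 or day 35 AGO9 or input libraries was left out.

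The size profile of the knob was set beside that of other chromosome 4 TEs in the same 16 libraries, in pairs. Against 1354 TEs of the pericentromere (starts from 2800000 to below 5200000), the 24 nt share of the knob differed by -1.43 ± 3.61 points (SD, n = 16), lower in 9 libraries and higher in 7 (exact paired permutation test, two-sided, p = 0.143). Taken without genes, the knob TEs were above them by 2.94 points in 16 of 16 libraries (exact p = 3.05e-05). Against 1851 TEs of the long arm (starts from 6500000), the knob was lower by a mean of 9.33 points in 16 of 16 libraries, with 54.9% against 64.2% (exact p = 3.05e-05, the smallest the test can give). Without the genes the difference was -4.96 points and held in 15 of 16. Libraries of 1 group are not independent, so these p-values are too small.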

How the data were processed

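Small RNA from 16 libraries was given as RPM per feature and read size (21 to 24 nt), a table the authors deposited for the whole series. Per the submitters' processing notes, cutadapt 1.18, Bowtie2 2.3.5.1, featureCounts and Subread 2.0.1 were used with TAIR10; how multiply mapped reads were counted, strand and molecular identifiers are not given in the sources used here. The authors deposited a combined column for 1 day 35 AGO5 library whose values did not match its size columns and are named score here; how it was made is not given, and it was not used.

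The 4 size columns were summed. RPM steps gave whole reads for 100% of values (tolerance 0.01), and library depth from them was 3578524 to 99594348 assignments. The 17020 features averaging 1 RPM or more were fitted with limma 3.58.1 in R 4.3.3 on log2(RPM + 1), over all 16 libraries in 8 groups with a trended prior and 8 residual degrees of freedom, for 13 comparisons. edgeR 4.0.16 (TMM, quasi-likelihood) on the recovered reads was an alternative and called from 4 to 5653 features per comparison. Other alternatives were a pseudocount of 0.25, no filter, quantile normalization, the 24 nt column alone, the replicate number as a block and each library left out. The scripts were tested on simulated data.

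Named features were, per comparison and direction, up to 3 with the largest called difference, an average of 10 RPM or more and no overlap of the groups, plus the 5 highest in input and the 3 highest protein-coding genes; MIR3932a, AT4TE08355, AT4G04315 and MIR841b were named outside this rule. The members and lists were chosen with earlier results of these data known. Sequences came from the TAIR10.1 genome and RefSeq annotation. Intervals and floors cover counting error only.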

Additional observations from a re-analysis of the deposited data

Results flagged for a closer look

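For the knob as a whole, the AGO5 IP lay above input in summed RPM at day 7 (log2 ratio 0.75) and below it at day 35 (-0.18), and the AGO9 IP did the same (1.11 and -0.049). For AGO9 the day 35 ratio was 0.067, above 0, when the TEs were taken without the genes. With all knob features, in each case every library of 1 age lay on 1 side of its inputs and every library of the other age on the other side. The AGO5 24 nt share minus that of input was 1.65 points at day 7 and -17.1 points at day 35. The difference between the ages was not tested for any of these, and age and tissue cannot be told apart.

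In 2 features the AGO9 enrichment over input differed between the ages by the interaction test of limma. The change was -2.32 for AT4TE09925 (adjusted p = 0.0376) and -2.86 for AT4G04315 (adjusted p = 0.0406), an ncRNA at chr4:2095259-2096518. AT4G04315 held 13.8 and 16.5 RPM in the AGO9 IP at day 7 against 4.53 and 4.001 RPM in input, and 2.49 and 0.995 RPM against 6.18 and 4.44 RPM at day 35.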

How the results depend on the processing

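The counts of knob features called depended on the processing, and the cause was not tested. The setting without the day 35 GFP-only libraries was chosen after seeing the data and could not be run for comparisons with them. AGO5 IP against input at day 7 (33 higher, 10 lower) gave 19 higher and 5 lower with a pseudocount of 0.25, 22 lower with no filter, 60 higher after quantile normalization, 19 higher and 2 lower with the 24 nt column alone, 0 lower with edgeR, 63 higher and 28 lower without the day 35 GFP-only libraries, and 0 to 63 higher and 0 to 28 lower with single libraries left out. AGO9 IP against input at day 7 (72 higher, 2 lower) gave 45 higher and 1 lower with a pseudocount of 0.25, 13 lower with no filter, 146 higher and 1 lower with the 24 nt column alone, 1 higher and 0 lower with edgeR, 128 higher without the day 35 GFP-only libraries, and 0 to 128 higher and 0 to 4 lower with single libraries left out. AGO5 IP against input at day 35 (9 higher, 45 lower) gave 4 higher with a pseudocount of 0.25, 39 higher and 21 lower after quantile normalization, 3 higher with the 24 nt column alone, 26 higher and 10 lower with edgeR, 19 higher and 73 lower without the day 35 GFP-only libraries, and 1 to 19 higher and 19 to 74 lower with single libraries left out. AGO9 IP against input at day 35 (3 higher, 2 lower) gave 0 lower with a pseudocount of 0.25, 5 higher and 0 lower after quantile normalization, 0 lower with the 24 nt column alone, 0 lower with edgeR, 1 lower with the replicate block, 7 lower without the day 35 GFP-only libraries, and 0 to 4 higher and 0 to 6 lower with single libraries left out. AGO5 IP against GFP-only IP at day 7 (101 higher, 4 lower) gave 2 lower with a pseudocount of 0.25, 1 lower with no filter, 48 higher and 13 lower after quantile normalization, 0 lower with the 24 nt column alone, 47 higher with edgeR, and 51 to 143 higher and 0 to 8 lower with single libraries left out. AGO9 IP against GFP-only IP at day 7 (197 higher, 5 lower) gave 1 lower with no filter, 60 higher and 13 lower after quantile normalization, 0 lower with the 24 nt column alone, 17 higher with edgeR, and 148 to 228 higher and 0 to 5 lower with single libraries left out. AGO5 IP against GFP-only IP at day 35 (87 higher, 5 lower) gave 2 lower with no filter, 40 higher and 12 lower after quantile normalization, and 64 to 120 higher and 3 to 26 lower with single libraries left out. AGO9 IP against GFP-only IP at day 35 (116 higher, 6 lower) gave 3 lower with no filter, 37 higher and 12 lower after quantile normalization, 2 lower with the 24 nt column alone, and 82 to 134 higher and 1 to 19 lower with single libraries left out. AGO5 IP against AGO9 IP at day 7 (1 higher, 46 lower) gave 0 higher with a pseudocount of 0.25, 2 higher with no filter, 5 higher and 9 lower after quantile normalization, 90 lower with the 24 nt column alone, 7 higher and 0 lower with edgeR, 2 higher and 92 lower without the day 35 GFP-only libraries, and 0 to 2 higher and 4 to 92 lower with single libraries left out. AGO5 IP against AGO9 IP at day 35 (10 higher, 33 lower) gave 21 higher after quantile normalization, 5 higher and 86 lower with the 24 nt column alone, 17 higher and 14 lower with edgeR, 21 higher and 67 lower without the day 35 GFP-only libraries, and 4 to 21 higher and 15 to 68 lower with single libraries left out. Input at day 35 against day 7 (22 higher, 3 lower) gave 1 lower with a pseudocount of 0.25, 8 lower with no filter, 7 lower after quantile normalization, 7 higher with the 24 nt column alone, 3 higher and 1 lower with edgeR, 42 higher and 6 lower without the day 35 GFP-only libraries, and 2 to 42 higher and 0 to 6 lower with single libraries left out. AGO5 enrichment over input at day 35 against day 7 (0 higher, 0 lower) gave 2 lower with no filter, 4 lower without the day 35 GFP-only libraries, and 0 to 0 higher and 0 to 4 lower with single libraries left out. AGO9 enrichment over input at day 35 against day 7 (0 higher, 2 lower) gave 0 lower with a pseudocount of 0.25, 17 lower with no filter, 1 higher and 0 lower after quantile normalization, 2 higher and 26 lower with the 24 nt column alone, 0 lower with edgeR, 7 lower with the replicate block, 2 higher and 57 lower without the day 35 GFP-only libraries, and 0 to 2 higher and 0 to 57 lower with single libraries left out.

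With 1 library left out, the lone library is assumed to vary like the other groups. The 24 nt share, AGO5 IP against GFP-only IP at day 35 was 4.1 and ranged from -8.39 to 16.6. The 24 nt share, input at day 35 against day 7 was -4.55 and ranged from -9.18 to 0.0795. With the TEs alone, the 24 nt share of AGO5 IP minus input at day 7 turned to -2.36 points and that of AGO5 IP minus GFP-only IP at day 35 to -1.42, the log2 ratio of summed RPM of AGO9 IP to input at day 35 to 0.067, and the knob share minus that of the pericentromere to 2.94, or to 1.57 with the median of features. MIR447c turned to 0.66 (AGO5 against GFP-only at day 7) and 0.30 (AGO9 against GFP-only at day 35), and AT4G04845 to 0.82 (AGO5 against GFP-only at day 7), with the 24 nt column alone. Of the 54 differences of named features, 277 recalculations kept the call, 86 lost it and 3 reversed; with 1 library left out 666 kept it and 198 lost it. For the IPs the replicate numbers are only shared numbers, but for the inputs they also mark the line, AGO5 or AGO9. Leaving out 1 input therefore also leaves out the input of 1 line at that age. The replicate block lost 1 such call, that of AT4TE08390 for AGO5 against input at day 35. The day 35 GFP-only libraries limit what can be detected in low features.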
